A study of Canis lupus familiaris with 8 samples.

Results

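PDCD1 (ENSCAFG00000013184) and CTLA4 (ENSCAFG00000012876) were followed as 2 of the 20257 genes of the canine gene list, in the 31909 blood TCRαβ+ T cells of 4 Beagles that passed quality control. The genes were taken by name. Cells were then grouped by the detection of the coreceptor genes CD4 and CD8A, by the detection of FOXP3 and by the number of cells that shared a T cell receptor β chain (TRB) rearrangement within a dog. Droplet-based 5′ RNA sequencing and V(D)J sequencing had been done on sorted TCRαβ+ cells, and each animal gave 1 library of each kind. The only female, dog 1, was aged 5 years, while the males were aged 7 years (dogs 2 and 3) and 9 years (dog 4). All were healthy, routinely vaccinated and untreated, and their cells had been frozen, thawed and processed in the same run. The dog was the replicate, so n = 4 throughout unless stated, and age, sex and dog cannot be told apart.

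PDCD1 encodes PD-1 and CTLA4 encodes CTLA-4, a pair of surface receptors that restrain T cells. PD-1 is induced by signals through the T cell receptor, binds the ligands encoded by CD274 and PDCD1LG2 and recruits the phosphatase encoded by PTPN11 to dampen signals from the T cell receptor and from CD28. It stays high on chronically stimulated T cells and on follicular helper T cells. CTLA-4 competes with the costimulatory receptor CD28 for CD80 and CD86 on antigen-presenting cells. It is induced on activated T cells, is kept by regulatory T cells under control of the transcription factor FOXP3, and resides largely in vesicles inside the cell, so that transcript and surface protein need not run in parallel.

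Libraries held 7428 to 8873 barcodes and 26904346 to 35661623 unique molecular identifiers (UMIs, each standing for 1 captured transcript). Between 7096 and 8454 cells per dog had 500 to 20000 UMIs with at most 10% from mitochondrial genes, with medians of 3599 to 3931.5 UMIs and 1412 to 1571 genes. The T cell label was checked on CD3E, which stood at 1175 to 1359 CPM (the UMIs of a gene divided by all UMIs of a group of cells, times 1000000). The B cell gene MS4A1 stood at 0.831 to 2.55 CPM and CSF1R of monocytes at 0, whereas CD79A, usually a B cell gene, stood at 9062 to 10270 CPM in these cells. Among the cell barcodes, 586 occurred in more than 1 library, 545 of them among cells that passed quality control.

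PDCD1 was sparse. It was detected, with at least 1 UMI, in 193, 394, 389 and 549 cells of dogs 1 to 4, which is 2.72%, 4.66%, 4.80% and 6.66% of their cells. Summed over all cells it stood at 8.48, 14.5, 14.3 and 20.4 CPM (14.4 ± 4.87, SD). Dog 1 was lowest and dog 4 highest on both scales. CTLA4 was detected in 20.8%, 29.4%, 24.7% and 30.5% of cells and stood at 100, 116, 106 and 131 CPM (113 ± 13.5, SD). Dogs 1 and 4 were again the lowest and the highest. Of the 568 CD4 single-positive cells with PDCD1, 464 (81.7%) held a single PDCD1 UMI, and the most in any cell of that group was 6. For CTLA4 a single UMI made up 61.1% of detections in that group, with up to 12 UMIs in a cell. A cell without a UMI can thus not be taken to lack the transcript, and levels of the 2 genes were not compared with each other, since the capture of each transcript is unknown.

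Cells with a CD4 UMI and no CD8A UMI are called CD4 sp (13247 cells), the reverse CD8A sp (6427 cells), cells with both dp (725 cells) and cells with neither dn (11510 cells). The paper could not tell dn cells that truly lack both coreceptors from those whose CD4 transcript was missed. In CD4 sp cells PDCD1 was detected in 2.43%, 3.83%, 5.01% and 6.29% of cells of dogs 1 to 4. In CD8A sp cells the shares were 5.79%, 10.3%, 6.14% and 10.0%. The CD8A sp share was higher within each dog, by 3.67 ± 2.19 percentage points (SD), although the ranges of the dogs overlapped (exact sign-flip permutation test, two-sided, p = 0.13, the smallest p that 4 dogs can give). Median depth was alike, at 3747 to 4091.5 UMIs in CD4 sp and 3586.5 to 3932 UMIs in CD8A sp cells. Thinning every cell to 2000 UMIs, with 1465 CD4 sp and 715 CD8A sp cells too shallow to be used, gave a difference of 2.45 points, again positive in 4 of 4 dogs.

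CTLA4 ran the other way. It was detected in 23.3%, 33.1%, 31.2% and 40.4% of CD4 sp cells and in 8.39%, 14.6%, 10.9% and 7.05% of CD8A sp cells. The groups did not overlap, and the CD8A sp share was lower within each dog, by 21.7 ± 8.04 points (exact sign-flip permutation test, two-sided, p = 0.13, the smallest possible). Thinning to 2000 UMIs left a difference of -13.9 points.

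The same comparison was fitted on UMIs summed per dog, with edgeR's quasi-likelihood test across 10118 genes and Benjamini-Hochberg adjustment, which called 14.1% of all genes at an adjusted p under 0.05, 6.59% higher and 7.51% lower in CD4 sp cells. CTLA4 stood at 109, 128, 128 and 162 CPM in CD4 sp cells against 29.0, 50.8, 45.5 and 29.1 CPM in CD8A sp cells of the same dogs. It was higher in CD4 sp cells by 1.76 ± 0.190 on the log2 scale (SE, edgeR adjusted p = 0.00034). PDCD1 stood at 7.30, 11.6, 14.9 and 19.2 CPM in CD4 sp cells against 16.6, 33.0, 18.3 and 29.1 CPM in CD8A sp cells, so that the ranges overlapped while CD8A sp was higher in 4 of 4 dogs. Its difference of -0.89 ± 0.291 missed the threshold (edgeR adjusted p = 0.0765) and passed it with the dog as a block (-0.85, adjusted p = 0.0112). With the dog as a block 27.1% of genes were called, and without dog 2 the PDCD1 value was -0.64 (adjusted p = 0.361).

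**Figure D1:**
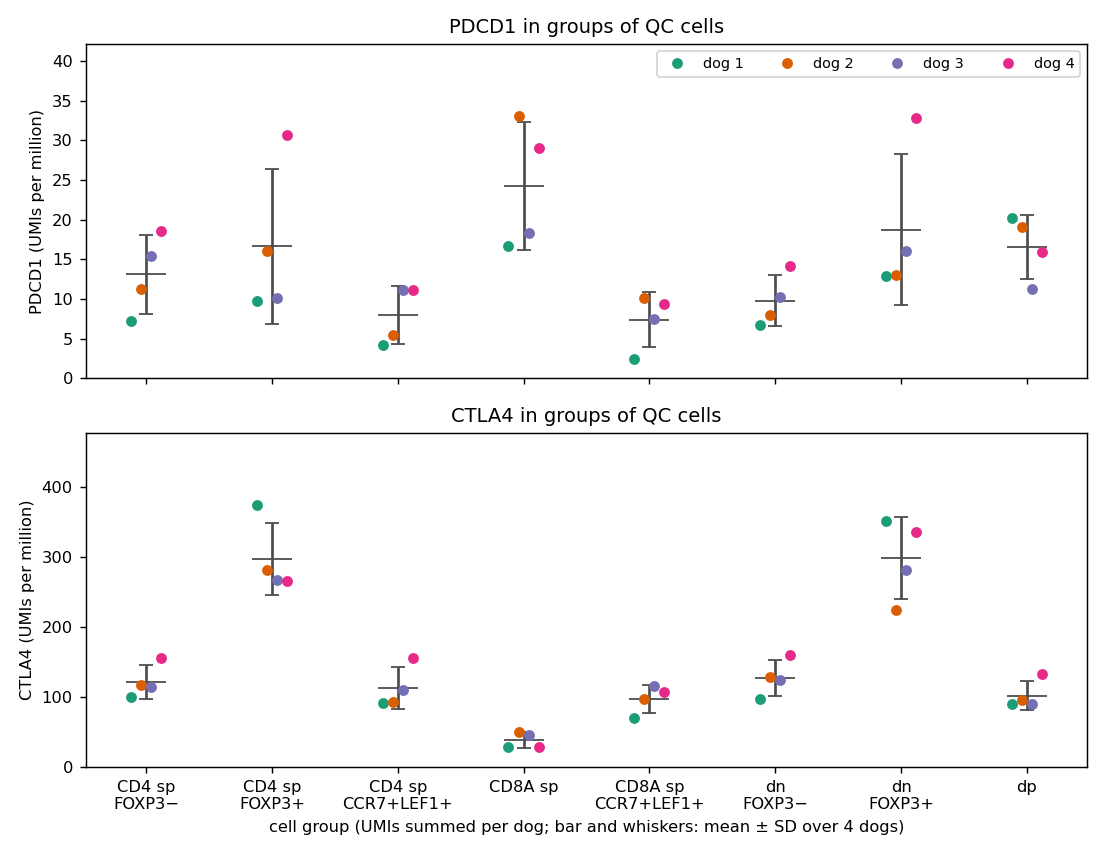
CPM of PDCD1 (top) and CTLA4 (bottom) in 8 groups of cells, with a point per dog and the mean ± SD over 4 dogs; FOXP3+ means at least 1 FOXP3 UMI, and CCR7+LEF1+ cells have a UMI of both genes and none of FOXP3. CTLA4 was highest in the FOXP3+ groups, at 297 CPM in CD4 sp and 298 CPM in dn cells, and lowest in CD8A sp cells at 38.6 CPM, whereas the PDCD1 groups overlapped from one to the next.

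Across 6 groups that share no cell, CTLA4 ran from 298 ± 58.0 CPM (SD) in FOXP3+ dn cells and 297 ± 51.7 CPM in FOXP3+ CD4 sp cells to 128 ± 25.8 in FOXP3- dn, 122 ± 23.9 in FOXP3- CD4 sp, 102 ± 20.5 in dp and 38.6 ± 11.3 in CD8A sp cells. Only 2 of the 5 steps in this order separated the ranges of the dogs, that from the FOXP3+ to the FOXP3- groups and that from dp to CD8A sp cells. PDCD1 ran from 24.3 ± 8.03 CPM in CD8A sp through 18.7 ± 9.49 in FOXP3+ dn, 16.7 ± 9.77 in FOXP3+ CD4 sp, 16.6 ± 4.00 in dp and 13.1 ± 4.94 in FOXP3- CD4 sp to 9.81 ± 3.25 in FOXP3- dn cells. None of its 5 steps from one group to the next separated the dogs, which does not compare groups further apart. The dp cells had median depths of 5688 UMIs on average, above all other groups, and doublets had not been removed.

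Other genes of the same pathways were read from fixed lists in the fit of CD4 sp against CD8A sp cells. Of 10 other inhibitory receptors tested, 2 were higher in CD4 sp cells, BTLA and CD5, and 6 were lower, with a list median of -1.97 on the log2 scale beside 0.00455 over all genes. CD160, a receptor of cytotoxic lymphocytes, stood at 0.421 to 1.87 CPM in CD4 sp against 115 to 182 CPM in CD8A sp cells (-6.79 ± 0.280, edgeR adjusted p = 2.68e-06). HAVCR2, which encodes TIM-3, TIGIT, CD244, CD96 and KLRG1 were the others. LAG3 stood at 1.26 to 5.16 CPM in CD4 sp and 2.94 to 4.10 CPM in CD8A sp cells and did not pass (-0.34 ± 0.393, edgeR adjusted p = 0.646). PDCD1 thus shared the negative sign of 6 receptors on this list, and CTLA4 the positive sign of BTLA and CD5.

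The costimulatory list pointed the way of CTLA4. Of 8 tested, 5 were higher in CD4 sp cells (CD28, ICOS, TNFRSF4, TNFRSF18 and CD40LG) and CD226 was lower. CD28, which shares its ligands with CTLA-4, stood at 99.4, 130, 123 and 161 CPM in CD4 sp against 35.0, 65.0, 52.7 and 40.1 CPM in CD8A sp cells (1.40 ± 0.189, edgeR adjusted p = 0.00117). Its groups did not overlap, and those of ICOS, another receptor of the CD28 family, did not either, at 107 to 182 against 47.4 to 65.5 CPM. Of the 4 ligands of PD-1 and CTLA-4, 2 had enough UMIs to be tested and neither passed without the dog as a block. CD80 stood at 24.0 to 38.3 CPM in CD4 sp and 25.0 to 36.4 CPM in CD8A sp cells. CD274 stood at 2.53 to 5.31 and 1.77 to 3.35 CPM, and passed with the dog as a block (0.59, edgeR adjusted p = 0.0489). Of 10 signalling and trafficking partners, 3 were lower in CD4 sp cells, and 6 with the dog as a block. Among the 3 were SH2D1A, an adaptor of the SLAM family receptors, at 61.7 to 81.2 against 196 to 263 CPM, and PTPN6, a phosphatase, at 124 to 155 against 169 to 264 CPM.

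FOXP3, the transcription factor that defines regulatory T cells, was detected in 622 CD4 sp cells. CTLA4 was detected in 63.9%, 67%, 60.9% and 57.0% of these cells of dogs 1 to 4, against 30.5 ± 7.19% (SD) of the 12625 CD4 sp cells without a FOXP3 UMI. The gain of 31.8 points was shared by 4 of 4 dogs (exact sign-flip permutation test, two-sided, p = 0.13, the smallest possible), and it was 21.2 points after thinning, which left out 44 and 1421 cells. Median depths were 4633.5 to 4879 UMIs with FOXP3 and 3726 to 4072.5 UMIs without. On summed UMIs CTLA4 stood at 373, 281, 266 and 265 CPM with FOXP3 and at 99.6, 117, 115 and 156 CPM without. The groups did not overlap, and the difference was 1.28 ± 0.144 on the log2 scale (edgeR adjusted p = 0.000772, where 5.02% of 9544 genes were called, 3.57% higher with FOXP3). FOXP3+ cells nevertheless made up only 388 of the 4207 CD4 sp cells with CTLA4, or 9.22%. FOXP3 was itself sparse, so that some cells without its UMI may hold its transcript.

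PDCD1 did not separate by FOXP3. It stood at 9.77, 16, 10.2 and 30.7 CPM with FOXP3 and at 7.21, 11.3, 15.4 and 18.6 CPM without, and the ranges overlapped (0.36 ± 0.387, edgeR adjusted p = 0.665). Its share of cells was higher with FOXP3 in 3 of 4 dogs, by 2.79 points, but lower in 4 of 4 dogs, by 0.338 points, after thinning to equal depth. Only 43 FOXP3+ CD4 sp cells held PDCD1 before thinning. After it the share was 1.15% to 3.05% of 578 cells, so this small difference rests on few cells. In dn cells the PDCD1 share was higher with FOXP3 in 4 of 4 dogs both before and after thinning (by 4.36 and 2.72 points, 7.39% against 3.03% before), with p = 0.13 in the exact sign-flip permutation test for each, the smallest possible. Thinning left out 56 FOXP3+ (10.4%) and 2485 FOXP3- dn cells (22.6%), and the difference between dn and CD4 sp cells was not tested. CTLA4 in dn cells was detected in 60.2 ± 4.12% (SD) with FOXP3 and 27.4 ± 6.51% without, close to its values in CD4 sp cells. Of 10 regulatory T cell genes tested in CD4 sp cells, 8 were higher with FOXP3, CTLA4 among them. IKZF2, which encodes the transcription factor Helios, stood at 78.7 to 162 against 13.6 to 19.9 CPM (2.98 ± 0.202, edgeR adjusted p = 4.03e-05), and IL2RA and CCR4 were 2.10 and 2.47 higher on the log2 scale. Of 9 other inhibitory receptors, TIGIT alone passed, at 3.77 to 11.7 against 0.898 to 2.5 CPM (2.36 ± 0.497, edgeR adjusted p = 0.0211), and it missed in cells of 2000 to 8000 UMIs (adjusted p = 0.102). Markers of other cell types were also higher with FOXP3. Of 4 B cell markers tested, MS4A1 (3.91 to 11.3 against 0.312 to 2.22 CPM, edgeR adjusted p = 0.0418) and BLK (1.95 to 5.08 against 0.291 to 0.936 CPM, edgeR adjusted p = 0.0197) were called, and the 6 B cell genes other than CD79A summed to 9.77 to 23.4 against 4.37 to 6.67 CPM, with PAX5 and CD22 at 0. LYZ, the single myeloid marker tested, stood at 1.88 to 7.12 against 0.234 to 0.415 CPM (edgeR adjusted p = 0.00547), and the 6 myeloid genes summed to 1.88 to 8.13 against 0.39 to 0.51 CPM, with CSF1R, S100A12, FCGR1A and CSF3R at 0. More than 1 TRB was found in 4.46% to 7.89% of FOXP3+ and 2.5% to 4.51% of FOXP3- CD4 sp cells with a TRB. The part of these in the FOXP3 results was not tested.

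Cells with a UMI of CCR7, a homing receptor of naive and central memory T cells, and of LEF1, a transcription factor of the same cells, but none of FOXP3 served as a reference for low PDCD1. In the 4073 such CD4 sp cells PDCD1 was detected in 3.1 ± 1.48% (SD), with median depths of 3870 to 4608.5 UMIs, against 4.28 ± 1.58% of all FOXP3- CD4 sp cells. The difference of -1.18 points had the same sign in 4 of 4 dogs (exact sign-flip permutation test, p = 0.13). In the 498 such CD8A sp cells PDCD1 was detected in 3.74 ± 2.01%, at 4159 to 5118.5 UMIs, which was 4.32 points below all CD8A sp cells and lower in 4 of 4 dogs. In both coreceptor groups the CCR7+LEF1+ cells were thus the deeper ones and had the lower PDCD1 share. This does not hold for depth in general. CD4 sp cells with a PDCD1 UMI were deeper than those without, with medians of 4483 to 4703 against 3729 to 4068.5 UMIs.

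CTLA4 was not low in the same cells. It was detected in 28.2 ± 8.95% (SD) of the CCR7+LEF1+ CD4 sp cells, lower than in all FOXP3- CD4 sp cells in 3 of 4 dogs. In CCR7+LEF1+ CD8A sp cells it was detected in 25.5%, 29.6%, 33.0% and 40.4% of cells of dogs 1 to 4, which was 21.9 points above all CD8A sp cells and higher in 4 of 4 dogs (10.9 points after thinning, exact sign-flip permutation test, two-sided, p = 0.13, the smallest possible). With at least 2 CD8A UMIs required, 377 cells were left and the share was 34.4 ± 5.04%. The lowest CTLA4 share in any gate was 2.39 ± 0.826% in CD8A sp cells with a UMI of FCER1G, an adaptor of innate receptors, at an average median depth of 3783 UMIs. The part of free RNA in these shares was not tested. The lowest PDCD1 share was 1.18 ± 1.19%, in CD8A sp cells with a UMI of CCR9, a gut-homing receptor, at 5332 UMIs.

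Clone size was counted over all cells of a dog that passed quality control and held exactly 1 productive TRB, and a clone was the set of cells with the same V gene, J gene and junction bases. In CD4 sp cells, 7236 cells were alone with their TRB (singletons) and 2568 were in clones of 2 or more cells (expanded). CTLA4 stood at 162, 125, 112 and 158 CPM in expanded and 109, 124, 133 and 165 CPM in singleton CD4 sp cells, with full overlap (0.02 ± 0.134 on the log2 scale, edgeR adjusted p = 0.976, where 5.34% of 9364 genes were called). PDCD1 stood at 9.13, 12.2, 17.5 and 17.2 CPM in expanded and 7.22, 12.1, 16.3 and 18.5 CPM in singleton cells (0.14 ± 0.284, edgeR adjusted p = 0.825). Neither level passed the test, whereas CCR7 was lower in expanded cells (-1.78 ± 0.184, edgeR adjusted p = 0.00249). The share of cells with CTLA4 was higher in expanded cells of 4 of 4 dogs, by 7.45 points, but expanded cells were also deeper, with average median depths of 4459 against 3882 UMIs. After thinning it was 1.84 points, in 3 of 4 dogs (exact sign-flip permutation test, two-sided, p = 0.375), with 232 expanded and 585 singleton cells left out. The PDCD1 share was higher in expanded cells of 2 of 4 dogs, by 0.333 points, and after thinning in 4 of 4, by 0.782 ± 0.483 points (SD, exact sign-flip permutation test, two-sided, p = 0.13, the smallest possible). The sign of both receptors turned with the dog as a block (PDCD1 -0.01, CTLA4 -0.02) and with clones counted as expanded from 5 cells (-0.35 and -0.10). The CCR7 difference was not called without dog 2 (adjusted p = 0.0586), where 1 gene was called in all.

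By clone size, the PDCD1 share of CD4 sp cells of dog 3 was 5.66%, 8.76%, 7.60% and 1.18% in clones of 1, 2, 3 to 9 and 10 or more cells. That of dog 4 was 6.29%, 10.7%, 8.92% and 2.21%. Both dogs were thus lowest in their largest clones. Dog 2 was not, with 3.86%, 4.10%, 3.78% and 5.2%, and dog 1 had no CD4 sp cell in a clone of 10 or more. Over the 3 dogs with such clones, the share in clones of 10 or more was 5.00 ± 5.30 points (SD) below that in clones of 2, lower in 2 of 3 dogs (exact sign-flip permutation test, two-sided, p = 0.5, where 3 dogs cannot give less than 0.25). The CTLA4 share in clones of 10 or more was 39.4%, 36.7% and 47.9% in dogs 2, 3 and 4.

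In CD8A sp cells, 1549 were singletons and 3546 expanded. CTLA4 stood at 10.9, 35.6, 29.5 and 12.5 CPM in expanded cells and at 31.6, 61.6, 76.9 and 71.0 CPM in singletons. Each dog was lower in expanded cells, although the ranges overlapped. The log2 difference of -1.48 ± 0.336 missed the threshold in the fit without the dog as a block (edgeR adjusted p = 0.0651, where 1.06% of 8290 genes were called) and passed with it (-1.55, adjusted p = 0.000484, where 6.57% were called). The share of cells with CTLA4 was 6.19 ± 3.74% (SD) in expanded and 15.9 ± 4.37% in singleton cells. It was lower in expanded cells of 4 of 4 dogs, by 9.76 points, and by 5.36 points after thinning, with p = 0.13 in the exact sign-flip permutation test, the smallest possible. Median depths were 3512 to 4101 UMIs in expanded and 3863.5 to 4041 UMIs in singleton cells. In clones of 10 or more cells CTLA4 was detected in 1.52%, 9.32%, 5.77% and 1.33% of CD8A sp cells of dogs 1 to 4, against 9.81%, 17%, 20.2% and 16.8% of singletons, and these ranges did not overlap.

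PDCD1 stood at 21.8, 29.1, 19.7 and 30.4 CPM in expanded and 15.4, 31.8, 14.5 and 28.9 CPM in singleton CD8A sp cells, and the groups overlapped (0.10 ± 0.243, edgeR adjusted p = 0.931). Its share differed by 0.863 points, in 3 of 4 dogs. List genes that passed between expanded and singleton CD8A sp cells included CCR7 (-2.87 ± 0.40, edgeR adjusted p = 0.00445) and LEF1 (-2.5 ± 0.219, edgeR adjusted p = 0.000436), both lower in expanded cells. TNFRSF18 was lower too. CD160 and CD244, inhibitory receptors of cytotoxic cells, were higher by 1.06 and 0.87 on the log2 scale, and TBX21 by 1.08 (edgeR adjusted p = 0.0452). With 1 dog left out, CD244 was never called (edgeR adjusted p = 0.0655 to 0.141) and CD160 reached 0.198. Of 10 cytotoxic genes 0 passed, and 8 were higher with the dog as a block.

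The CCR7+LEF1+ cells with high CTLA4 were spread unequally over these groups. They made up 26.8%, 21.6%, 25.7% and 8.70% of singleton CD8A sp cells of dogs 1 to 4 and 1.62%, 1.82%, 2.09% and 0.466% of expanded ones. Among CD8A sp cells with neither a CCR7 nor a LEF1 UMI, a comparison added after seeing the data, the log2 difference of CTLA4 between expanded and singleton cells was -0.50 (edgeR adjusted p = 1, with 0 genes called). The CTLA4 shares were then 5.67% in expanded and 7.84% in singleton cells, lower in expanded cells of 4 of 4 dogs before thinning and of 2 of 4 after. PDCD1 in the same cells was detected in 8.81% of expanded and 12.4% of singleton cells, lower in 4 of 4 dogs before thinning and in 2 of 4 after.

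**Figure D2:**
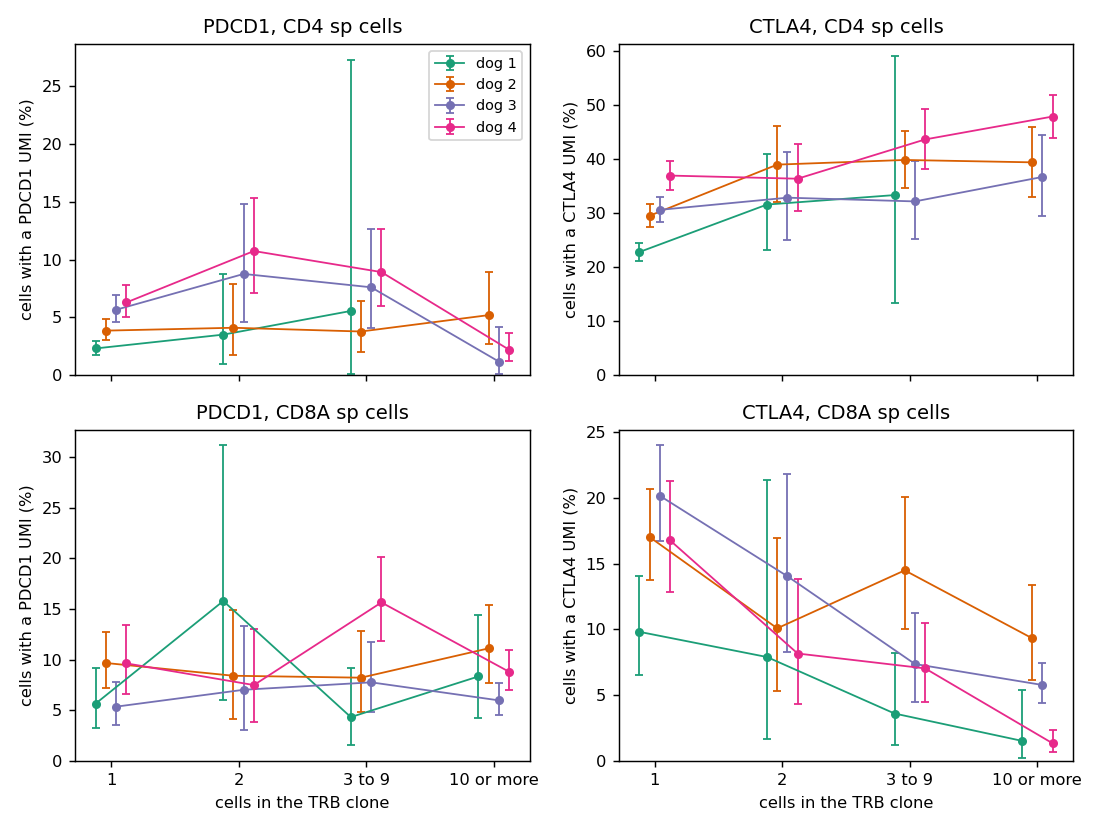
Share of CD4 sp (top) and CD8A sp cells (bottom) with a PDCD1 (left) or CTLA4 UMI (right) by the number of cells in their TRB clone, with a line per dog and exact 95% binomial intervals, which cover counting error only. CTLA4 in CD8A sp cells was lower in clones of 10 or more cells than in singletons in each dog, while PDCD1 in CD8A sp cells had no common course over the dogs.

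The difference between CD8A sp and CD4 sp cells in the effect of clone size was tested as an interaction over 16 sums. For CTLA4 it was -1.50 ± 0.381 on the log2 scale and missed the threshold (edgeR adjusted p = 0.326, with the dog as a block 0.0511, by DESeq2 0.0984). For PDCD1 it was -0.05 ± 0.404 (edgeR adjusted p = 1). Of 9311 genes, 1 was called (0.0107%), MXI1, a repressor of MYC targets named here after its value was seen, and 543 had an unadjusted p under 0.05. A different response of CTLA4 to clone size in the 2 coreceptor groups is therefore not shown by this test.

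Single clones differed in both receptors. Among the 159 clones of 10 or more cells, 66 held more CD4 sp than CD8A sp cells, 83 the reverse and 10 as many of each. The last include 2 clones of dog 1, which had no CD4 sp cell in clones of this size, so these held none of either. No CD4 clone lacked a CTLA4 UMI, and the share of cells with CTLA4 ran from 10.0% to 75% with a median of 42.1%. The CD4 clones came from dogs 2, 3 and 4 only (17, 11 and 38 clones), with medians of 37.5%, 30.8% and 44.95%. By contrast, 47 of the 83 CD8A clones had no CTLA4 UMI, and the highest share was 52.9%. PDCD1 was undetected in 46 of the 66 CD4 clones and in 36 of the 83 CD8A clones. Cells with PDCD1 came from many clones: those of CD4 sp cells fell in 65, 94, 111 and 136 clones of dogs 1 to 4 and those of CD8A sp cells in 31, 72, 65 and 91. The most from a single clone was 21 of 104 PDCD1+ CD8A sp cells of dog 2 (20.2%).

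The clones with the highest shares are shown by their TRB junctions, 5′ to 3′, since the junction is what identified each clone. Capitals mark the bases between the end of the V gene and the start of the J gene. They were chosen for these shares, which are a description without a test, and cells of a clone share their receptor and are not replicates. Exact intervals given for a share by which a clone was chosen do not allow for that choice.
Dog 2 CD4 clone, TRBV7 and TRBJ2-6: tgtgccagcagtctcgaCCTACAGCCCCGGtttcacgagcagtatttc
Dog 4 CD4 clone, TRBV18 and TRBJ1-3: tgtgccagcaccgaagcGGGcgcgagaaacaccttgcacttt
Dog 4 CD4 clone, TRBV5-2 and TRBJ1-2: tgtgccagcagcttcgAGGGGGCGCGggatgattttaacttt
Dog 4 CD4 clone, TRBV7 and TRBJ2-3: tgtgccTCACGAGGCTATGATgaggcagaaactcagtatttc
Dog 4 CD8A clone, TRBV25 and TRBJ2-6: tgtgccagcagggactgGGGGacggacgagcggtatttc
Dog 2 CD8A clone, TRBV4-3 and TRBJ1-6: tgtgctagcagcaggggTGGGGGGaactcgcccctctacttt
Dog 4 CD8A clone, TRBV26 and TRBJ2-2: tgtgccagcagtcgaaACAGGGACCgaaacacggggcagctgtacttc
Dog 3 CD8A clone, TRBV16 and TRBJ2-6: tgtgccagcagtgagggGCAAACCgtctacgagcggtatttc
Dog 3 CD8A clone, TRBV7 and TRBJ2-1: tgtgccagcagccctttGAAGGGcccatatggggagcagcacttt

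The dog 2 TRBV7 and TRBJ2-6 clone had 17 cells, of which 9 held PDCD1 (52.9%, exact 95% interval 27.8% to 77.0%) and 6 held CTLA4. All its cells had a UMI of GZMK, a granzyme of memory T cells. The dog 4 TRBV18 and TRBJ1-3 clone had 10 cells, with PDCD1 in 5 and CTLA4 in 5, and GZMK again in 100% of cells. These clones were picked for their PDCD1 shares, while their CTLA4 shares lay on either side of the median of 42.1% over the 66 CD4 clones. The CD4 clone next in PDCD1 share, TRBV28 and TRBJ1-6 of dog 4 (junction not shown), held PDCD1 in 2 of 13 cells. It held GZMK in 7.69% of cells, and 69.2% had a UMI of CCR7 or LEF1. The CD4 clones with most CTLA4 were others. TRBV5-2 and TRBJ1-2 of dog 4 held CTLA4 in 12 of 16 cells (75%) and TRBV7 and TRBJ2-3 of dog 4 in 18 of 25 (72.0%), both with 0 PDCD1 UMIs, which allows a PDCD1 share of up to 20.6% and 13.7% by the exact 95% interval. PDCD1 was undetected in 46 of the 66 CD4 clones, so its absence from the clones with most CTLA4 does not set them apart. FOXP3 was undetected in each of the CD4 clones described here.

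Among CD8A clones, the largest with a high PDCD1 share was TRBV4-3 and TRBJ1-6 of dog 2, with 53 cells, of which 50 were CD8A sp and 23 held PDCD1 (43.4%, exact 95% interval 29.8% to 57.7%). It held GZMK in 100% and GZMB, the granzyme of cytotoxic granules, in 83.0% of cells, and CTLA4 in 5 cells. TRBV25 and TRBJ2-6 of dog 4 held PDCD1 in 5 of 11 cells and TRBV26 and TRBJ2-2 of dog 4 in 7 of 20, each with CTLA4 in 1 cell. The first of these held GZMB in 18.2% and GZMK in 81.8% of cells, the other both in 100%. The CD8A clones highest in CTLA4 came from dog 3. TRBV16 and TRBJ2-6 held CTLA4 in 9 of 17 cells, but 16 of its cells were dn and 1 was CD8A sp. TRBV7 and TRBJ2-1 held CTLA4 in 40 of 94 cells (42.6%) and PDCD1 in 0 (upper limit 3.85%). Of its cells 34 were CD8A sp, 56 dn and 3 CD4 sp, 11 had a FOXP3 UMI and 22.3% a GZMK UMI.

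**Figure D3:**
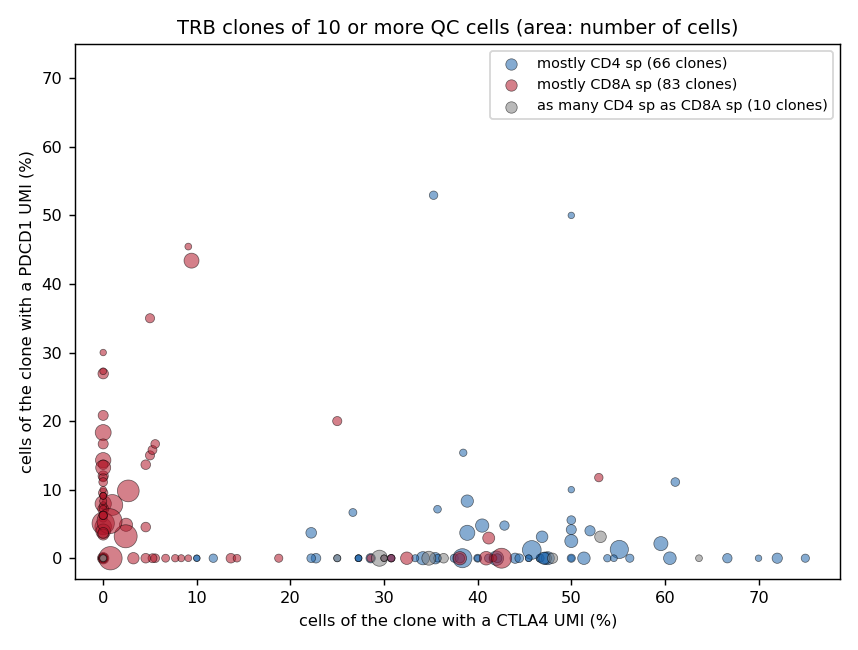
Share of cells with a PDCD1 UMI against the share with a CTLA4 UMI in the TRB clones of 10 or more cells, with a point per clone whose area is its number of cells and whose colour is its main coreceptor. Most CD8A clones lay at or near 0% CTLA4 with PDCD1 shares up to 45.5%, the CD4 clones lay at 10.0% to 75% CTLA4, and 2 CD4 clones stood above 20% PDCD1.

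Cells with PDCD1 were compared with cells without it, leaving PDCD1 itself out since it set the groups. In CD4 sp cells, 297 of 9541 genes were called by edgeR (3.11%), 225 higher (2.36%) and 72 lower (0.755%) in the 568 PDCD1+ cells. CTLA4 stood at 174, 160, 192 and 182 CPM in PDCD1+ cells against 107, 127, 123 and 160 CPM in the others. The ranges met at 160 CPM, and the difference of 0.42 ± 0.115 missed the threshold (edgeR adjusted p = 0.0751) but passed with the dog as a block (0.40, adjusted p = 0.000819, where 14.2% of genes were called). The share of cells with CTLA4 was higher with PDCD1 in 4 of 4 dogs, by 12.1 points, and in 3 of 4 after thinning, by 6.34 points. PDCD1+ cells were deeper, with medians of 4483 to 4703 against 3729 to 4068.5 UMIs. More than 1 TRB was found in 1.70% to 10.4% of PDCD1+ cells with a TRB and in 2.46% to 4.46% of the others; the part of doublets in these values was not tested.

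Genes were named from those called, with the same direction in 4 of 4 dogs and a mean of at least 20 CPM over the 8 sums, as the 10 with the largest rise and the 5 with the largest fall. Of the list of 9 activation and MHC class II genes tested, MKI67, TOP2A and FAS were called higher in PDCD1+ CD4 sp cells. MKI67, which encodes the proliferation marker Ki-67, stood at 176, 115, 102 and 136 CPM in PDCD1+ cells against 29.3, 29.7, 15.4 and 18.8 CPM in the others (2.44, edgeR adjusted p = 0.000887). TK1, a thymidine kinase used for DNA synthesis, stood at 144, 99.5, 129 and 76.8 against 14.2, 17, 23.9 and 20.1 CPM (2.52, edgeR adjusted p = 0.000626). Neither gene's groups overlapped, and both stayed under the threshold with any dog left out (adjusted p up to 0.0195). RRM2, a subunit of ribonucleotide reductase, the histone gene H1-5, the kinetochore genes CENPF and KNL1 and the histone methyltransferase gene EZH2 were also among the 10, higher by 3.15, 2.87, 1.79, 1.62 and 1.72 on the log2 scale. In cells of 2000 to 8000 UMIs 15 genes were called in this comparison, in place of 297. Beyond that fit, the part of depth and of doublets in these rises was not tested.

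Of 9 cytotoxic genes tested, 3 were called, GZMK, CCL4 and the chemokine receptor gene CX3CR1, all higher with PDCD1, and 8 with the dog as a block. CCL4, a chemokine of activated T cells, stood at 15.1, 167, 88.0 and 390 against 9.58, 12.8, 19.5 and 32.4 CPM (3.23 ± 0.601, edgeR adjusted p = 0.0162), and dog 1 overlapped with the PDCD1- cells. CX3CR1 had the larger fold but a low level, at 4.3, 15.2, 15.6 and 15.2 against 0.29, 0.675, 1.41 and 1.83 CPM (3.64 ± 0.543, edgeR adjusted p = 0.00777). GZMK stood at 83.9, 634, 379 and 508 against 22.2, 64.7, 123 and 116 CPM (2.31, edgeR adjusted p = 0.0436). Without the clone of each dog that held most PDCD1+ cells, an alternative added after seeing the data, GZMK was 2.01 higher (adjusted p = 0.062). FABP3, a fatty acid-binding protein, stood at 51.6, 126, 99.4 and 107 against 7.55, 20.4, 18.1 and 20.8 CPM, with no overlap (2.53, edgeR adjusted p = 0.00247).

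Among 14 transcription factors of activated and exhausted T cells, 3 were higher in PDCD1+ CD4 sp cells: TOX by 0.80, TOX2 by 1.27 and MAF by 1.02 on the log2 scale (edgeR adjusted p = 0.0019, 0.0148 and 0.0217), and 7 with the dog as a block. TOX and TOX2 encode related DNA-binding proteins known from exhausted and follicular helper T cells. None of the 10 other inhibitory receptors passed, and 2 did with the dog as a block. TIGIT, 1 of these 2, stood at 3.03 to 12.9 against 0.944 to 2.70 CPM and was higher in 4 of 4 dogs (2.01 ± 0.580, edgeR adjusted p = 0.0887, with the dog as a block 0.0109). CXCR5, the receptor that guides follicular helper T cells, stood at 12.9, 5.53, 1.42 and 1.01 against 3.19, 1.01, 2.35 and 4.85 CPM, higher in dogs 1 and 2 and lower in dogs 3 and 4. SH2D1A stood at 75.3 to 159 against 61.3 to 78.6 CPM (0.64 ± 0.167, edgeR adjusted p = 0.0645, with the dog as a block 4.2e-05). IKZF2 and TNFRSF18 were called from the regulatory list of 11, by 1.03 and 0.96, and 7 of its genes with the dog as a block.

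The genes that fell with PDCD1 in CD4 sp cells included CCR7 (-1.17, edgeR adjusted p = 0.0371), IL7R, the receptor for interleukin 7 (-0.81, edgeR adjusted p = 0.00869), and TRAT1, an adaptor that stabilises the T cell receptor complex and CTLA-4 at the surface. TRAT1 stood at 144, 109, 90.8 and 83.9 CPM with PDCD1 and 322, 233, 220 and 179 CPM without, with no overlap (-1.23, edgeR adjusted p = 0.0124). SSBP2, CDH1 and CCND2 completed the 5 with the largest fall by that rule. Counts of called genes leaned on single dogs here, with 8 called without dog 2 and 13 without dog 3, and with 15 in cells of 2000 to 8000 UMIs. B cell genes other than CD79A (6 summed, PAX5 and CD22 at 0) stood at 5.68 to 17.2 CPM in PDCD1+ and 4.77 to 8.28 CPM in PDCD1- CD4 sp cells, and their part in these results was not tested.

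In CD8A sp cells 35 of 8027 genes were called between the 530 PDCD1+ cells and the others (0.436%), 22 higher (0.274%) and 13 lower (0.162%), and 617 (7.69%) with the dog as a block. CTLA4 stood at 28.4, 42.8, 31.3 and 36.3 CPM in PDCD1+ against 29.0, 51.9, 46.4 and 28.2 CPM in PDCD1- cells (-0.12 ± 0.263, edgeR adjusted p = 0.896). The ranges overlapped, the sign turned to 0.05 without dog 3, and the share of cells with CTLA4 was 9.57% against 10.3%. GZMB rose, at 2400, 1790, 2760 and 3210 against 1190, 947, 1370 and 1570 CPM, with no overlap (1.0, edgeR adjusted p = 0.0297). RRM2, FABP3 and MCM3, a helicase subunit of DNA replication, rose by 2.08, 1.26 and 1.15, and ITGB2, the β chain of leukocyte integrins, by 0.76.

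TCF7, a transcription factor of naive and memory T cells with self-renewal, fell in PDCD1+ CD8A sp cells, at 119, 76.3, 70.0 and 58.6 against 241, 265, 174 and 216 CPM (-1.60, edgeR adjusted p = 0.00538). CCR9 stood at 0, 5.36, 1.84 and 9.37 against 31.3, 59.7, 44.9 and 57.1 CPM (-3.14, edgeR adjusted p = 0.00871). The groups of both genes were apart in these dogs. SPINT2, KDM6B and C9H17orf99 were the others of the 5 with the largest fall by the same rule. Of 7 naive and central memory genes 1 was lower (5 with the dog as a block), of 10 cytotoxic genes 1 was higher (8 with the block) and of 7 other inhibitory receptors none was called. SH2D1A stood at 264 to 479 against 187 to 254 CPM (0.76 ± 0.169, edgeR adjusted p = 0.0645), past the threshold with the dog as a block (adjusted p = 1.19e-07). TOX stood at 45.5 to 102 against 68.5 to 136 CPM, where its difference of -0.18 ± 0.216 did not pass. Without dog 2 no gene was called. PDCD1+ CD8A sp cells held median counts of 6 to 8 CD8A UMIs against 5 to 6 in the others. More than 1 TRB was found in 15.5% against 5.88% in dog 2. The order was the reverse in dogs 1, 3 and 4, at 0% against 4.29%, 0.885% against 1.94% and 2.38% against 4.11%. The part of these in the results was not tested.

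Cells with CTLA4 were compared in the same way. Among CD4 sp cells without FOXP3, 3819 held CTLA4, and edgeR called 0 of 9594 genes (0.0%), with 391 at an unadjusted p under 0.05. With the dog as a block it called 758 (7.9%), 4.54% higher and 3.36% lower, and DESeq2 without a block called 10 (0.0715%). PDCD1 stood at 8.95, 14.1, 19.8 and 19.8 CPM in CTLA4+ and 6.63, 9.74, 13.2 and 17.6 CPM in CTLA4- cells. It was higher in 4 of 4 dogs with overlapping ranges, by 0.40 ± 0.310 (edgeR adjusted p = 0.999, with the dog as a block 0.0612). Of the genes called with the dog as a block, MKI67 was 1.79 higher (adjusted p = 5.47e-06), IKZF2 1.39, CCR4, a skin-homing receptor shared with regulatory T cells, 1.01 and ICOS 0.53 higher, and TRAT1 0.69 lower. IKZF2, CCR4, ICOS and TRAT1 were named from the fixed lists. By size of change TK1 (1.11) and RGS10 (-0.87) were chosen with MKI67, and the others so chosen are not described here. In that fit 8 of 9 regulatory genes were higher and 6 of 7 naive and central memory genes lower. Some cells without a FOXP3 UMI may still hold its transcript, and the part of such cells was not tested. The CTLA4+ cells were deeper, with medians of 4042 to 4461.5 against 3652 to 3909.5 UMIs, and more than 1 TRB was found in 3.33% to 7.59% against 1.95% to 3.6%. B cell genes other than CD79A (6 summed, PAX5 and CD22 at 0) stood at 5.77 to 10.1 against 3.28 to 5.46 CPM, and the 6 myeloid genes, with CSF1R, S100A12, FCGR1A and CSF3R at 0, at 0.727 to 1.18 against 0.137 to 0.39 CPM. The part of these in the results was not tested.

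In CD8A sp cells 210 of 8255 genes (2.54%) were called between the 658 CTLA4+ cells and the others, 96 higher (1.16%) and 114 lower (1.38%). PDCD1 stood at 11.2, 24.9, 8.37 and 29.8 CPM in CTLA4+ and 17.2, 34.7, 20.1 and 29.0 CPM in CTLA4- cells, lower in 3 of 4 dogs (-0.41 ± 0.340, edgeR adjusted p = 0.672). Of 10 cytotoxic genes 7 fell with CTLA4, with a list median of -1.64 beside 0.000745 over all genes. CD160 stood at 11.2, 38.7, 13.7 and 33.6 against 150, 213, 133 and 151 CPM, with no overlap (-2.61, edgeR adjusted p = 0.000644). FCER1G fell by 2.68 on the log2 scale, CD244 by 2.48, GZMA by 2.38, CX3CR1 by 2.12 and GZMB by 1.45. The transcription factors TBX21 and EOMES of effector cells fell by 1.61 and 1.18. The other inhibitory receptors CD160, CD244 and CD96 fell, 3 of 7 tested.

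CD28 rose with CTLA4 in CD8A sp cells, at 86.1, 108, 99.7 and 114 against 29.7, 55.8, 44.4 and 31.9 CPM (1.37 ± 0.185, edgeR adjusted p = 0.00296), and ICOS, at 59.9, 110, 107 and 127 against 46.1, 56.0, 55.8 and 49.6 CPM (1.05 ± 0.142, edgeR adjusted p = 0.00296). The groups of neither gene overlapped. CD40LG, a helper ligand, was the other of 3 called among 6 costimulatory receptors, by 1.55. MGAT5, a glycosyltransferase, rose most among genes with a mean of at least 20 CPM, at 48.7, 52.6, 44.1 and 53.5 against 16.8, 15.3, 10.4 and 9.66 CPM (2.0, edgeR adjusted p = 0.000644). MKI67 was 1.54 higher (edgeR adjusted p = 0.00632), but -0.41 in cells of 2000 to 8000 UMIs. CCR7 was 1.49 higher without passing (edgeR adjusted p = 0.0772, with the dog as a block 4.59e-06, where 8.38% of genes were called). TRAT1 fell here too, by 1.09, as in PDCD1+ CD4 sp cells.

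CTLA4+ CD8A sp cells differed from the others in measures that bear on their gate. A single CD8A UMI was all that 25.9%, 23.9%, 22.2% and 18.9% of them held, against 12.6%, 14.1%, 9.74% and 8.38% of the CTLA4- cells. More than 1 TRB was found in 4.81% to 12.2% against 1.09% to 6.71%, and median depths were 4368 to 4918 against 3468.5 to 3904 UMIs. The NK cell genes NCR1, KLRF1 and NCAM1 summed to 0.922 to 11.2 CPM with CTLA4 (KLRF1 at 0) and 12.9 to 21.1 CPM without, and NCR1 was called lower (-3.30, edgeR adjusted p = 0.00142). B cell genes other than CD79A summed to 3.81 to 11.1 against 1.17 to 4.69 CPM. The part of these in the results was not tested.

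**Figure D4:**
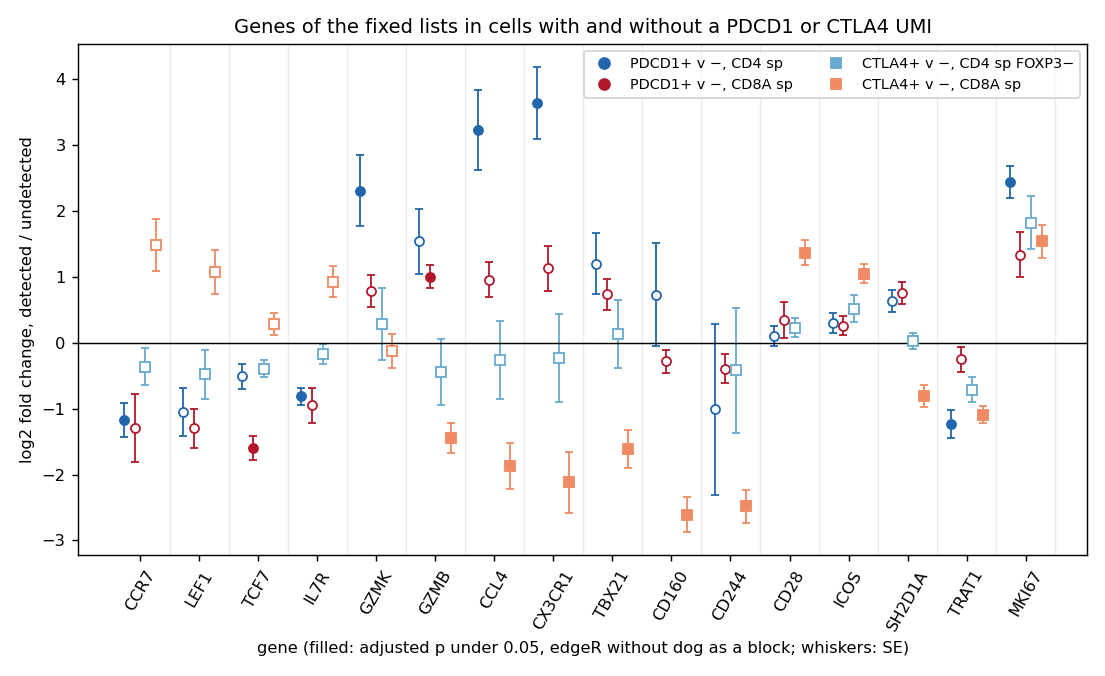
Log2 fold changes (± SE) of 16 list genes between cells with and without PDCD1 (circles) or CTLA4 (squares), in CD4 sp cells (blue) and CD8A sp cells (red and orange), with filled points for an edgeR adjusted p under 0.05 without the dog as a block; genes with too few UMIs in a comparison have no point. CCL4 stood at 3.23 with PDCD1 in CD4 sp cells and at -1.87 with CTLA4 in CD8A sp cells, and CD28 stood at 1.37 with CTLA4 in CD8A sp cells.

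Across gates set by 1 UMI of a marker gene, with 20 or more cells in a dog, PDCD1 in CD4 sp cells ran from 42.0 ± 20.4 CPM (SD) with GZMB, 39.9 ± 11.1 with GZMK and 37.7 ± 18.7 with MKI67 down to 9.12 with LEF1, 8.79 with CCR7 and 5.23 ± 2.59 with CCR9. In CD8A sp cells it was again highest with MKI67 (38.1 ± 27.9, 3 dogs), GZMK (37.4 ± 13.4) and GZMB (37.0 ± 12.5) and lowest with LEF1, CCR7 and CCR9 (11.6, 8.0 and 2.44 CPM). The order of PDCD1 was thus alike at both ends in the 2 coreceptor groups. None of the 14 steps in the CD4 sp order and none of the 13 in the CD8A sp order separated the ranges of the dogs. These steps join neighbours only. In CD4 sp cells PDCD1 ran from 28.6 to 54.4 CPM with GZMK. It ran from 6.32 to 11.4 with LEF1, 4.18 to 13.9 with CCR7 and 2.66 to 8.61 with CCR9. With GZMB it ran from 12.1 to 57.5, which overlapped with CCR7. In CD8A sp cells it ran from 27.1 to 53.4 CPM with GZMB. With LEF1, CCR7 and CCR9 it stood there at 8.45 to 15.3, 2.07 to 14.4 and 0 to 6.11 CPM.

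CTLA4 in CD4 sp cells was highest with FOXP3 (297 ± 51.7 CPM, SD), CCR4 (252 ± 14.0), MKI67 (217 ± 34.2) and GZMB. It was lowest with CXCR5 (111 ± 56.5, 3 dogs) and KLRK1 (109 ± 27.9), an activating receptor of cytotoxic cells. The CXCR5 gate ran widely, from 67.9 to 175 CPM. In CD8A sp cells it was highest with CCR4 (112 ± 16.7, 3 dogs) and CCR7 (97.5 ± 20.3) and lowest with GZMB (19.6 ± 7.36) and FCER1G (6.78 ± 3.16). CCR7 therefore stood near the top of the CTLA4 order in CD8A sp cells and near the bottom of the PDCD1 order. Of the 14 steps in CD4 sp cells, that from FOXP3 to CCR4 separated the ranges of the dogs, and none of the 13 in CD8A sp cells did. These steps again join neighbours only. In CD8A sp cells CTLA4 ran from 68.3 to 115 CPM with CCR7, 9.75 to 27.6 with GZMB and 3.5 to 10.1 with FCER1G. Gates share cells, and a gate is a set of cells with a UMI and not a cell type.

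**Figure D5:**
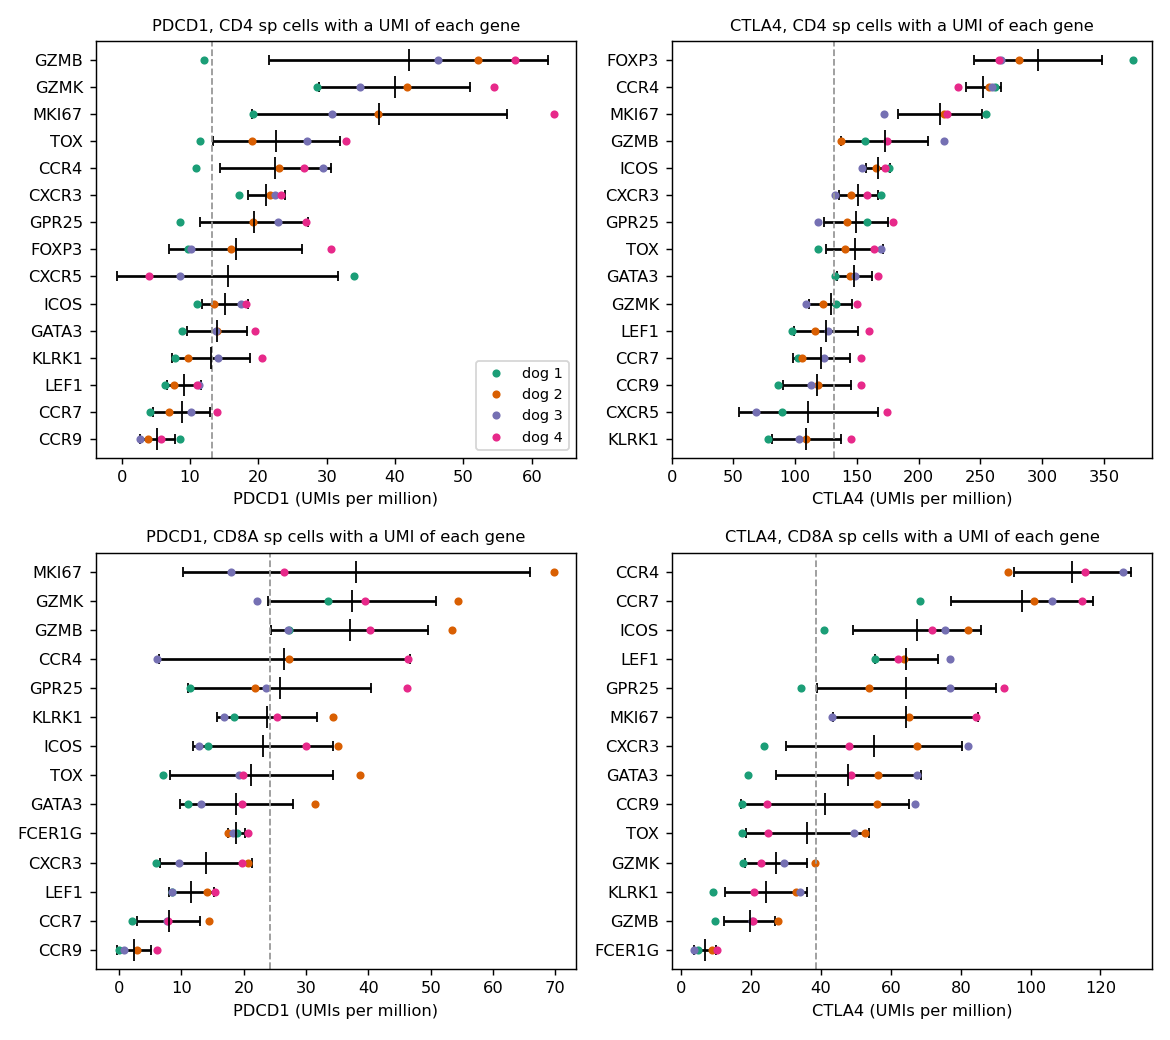
CPM of PDCD1 (left) and CTLA4 (right) in CD4 sp (top) and CD8A sp cells (bottom) that held a UMI of the gene named on the left axis, with a point per dog, the mean ± SD, and a dashed line at the mean of all cells of that coreceptor group. PDCD1 was highest with GZMB, GZMK or MKI67 in both coreceptor groups, while CTLA4 was highest with FOXP3 in CD4 sp cells (297 CPM) and lowest with FCER1G in CD8A sp cells (6.78 CPM).

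The genes most like each receptor were read from 24 sums (6 cell groups in 4 dogs, log2 of CPM with 10 added, centred within dogs) over 5016 genes. The 5 closest to PDCD1 by Pearson's r were CMC1 (0.81), ZAP70, a kinase of the T cell receptor (0.81), SUSD1 (0.80), GUK1 (0.80) and BCL2A1 (0.79). Those closest to CTLA4 were CABP5 (0.95), IFI30 (0.94), SP140 (0.94), SERPINB1 (0.94) and ICOS (0.94). Between PDCD1 and CTLA4 r was -0.62. The sums share dogs and libraries, so these values describe the order of the groups and carry no test.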

How the data were processed

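TCRαβ+ T cells of 4 Beagles had been sorted, and 4 gene expression and 4 V(D)J libraries were used, 1 of each per dog. The authors made the gene expression files with Cell Ranger 5.0.1, per the labels' processing notes, and deposited a matrix per dog of UMI counts, genes by cell barcodes, not normalized and holding only barcodes called as cells. The V(D)J files the authors deposited list each productive chain of a barcode by its V gene, J gene, sequence, V end, J start, junction and UMI counts; their V and J reference was not given in the sources used here. The gene list that came with dog 1 was longer than its matrix and was replaced by that of dog 2. No coordinates are given, since no annotation of the build was at hand.

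Barcodes were kept at 500 to 20000 UMIs if 13 mitochondrial genes took no more than 10% of them, and doublets were not removed. UMIs were summed per dog and cell group, and CPM was taken from those sums. Groups were compared with edgeR 4.0.16 in R 4.3.3 (TMM, default filter on low counts, quasi-likelihood test, Benjamini-Hochberg adjustment over all genes tested, threshold 0.05), without the dog as a block. Since both sums of a dog came from the same animal, the numbers pair the samples, and the deviations of a dog's 2 sums correlated at 0.201 to 0.818 over genes. Values with the dog as a block are given where they changed a call on PDCD1 or CTLA4 or moved a count over all genes by over 1.5 times. For other genes and for list counts they are given only in part, so a miss printed without them may pass with the block. DESeq2 1.42.0, no filter, leaving out each dog, cells of 2000 to 8000 UMIs, 2 coreceptor UMIs and other definitions of clones were the alternatives. Comparisons without FOXP3+ cells, without the clone richest in PDCD1, and without CCR7+ or LEF1+ cells were added after seeing the data. Shares per dog carry exact Clopper-Pearson 95% intervals, which cover counting error only, and were compared within dogs by the exact sign-flip permutation test. Of the scripts, the edgeR fit without the dog as a block was tested on simulated sums. These had no dog effect and were modelled on CD4 sp against CD8A sp cells and on PDCD1+ against PDCD1- CD8A sp cells.

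The receptors, the gene lists and the tests were chosen with earlier results of these data known. Named genes were PDCD1 and CTLA4, up to 4 per list with the largest change and those a sentence needs, and in each comparison of detected with undetected cells the 10 with the largest rise and the 5 with the largest fall among genes past the threshold that moved the same way in 4 of 4 dogs, with a mean of at least 20 CPM over all sums and a symbol. Where no gene passed, in CTLA4+ CD4 sp cells, they came from the fit with the dog as a block. The genes with the largest rise and fall are all printed for PDCD1+ CD4 sp cells only, and in part for the other comparisons. B cell, myeloid, platelet and erythroid, and NK and γδ T cell lists were checked. Of the last list only 3 of 6 genes were in the gene list, the NK cell genes NCR1, KLRF1 and NCAM1. No γδ T cell gene could therefore be checked. The myeloid list (6 of 7 genes in the gene list, CSF1R, S100A12, FCGR1A and CSF3R at 0) and the platelet and erythroid list (4 of 7, PPBP and HBM at 0) summed to at most 3.74 CPM in any group compared, apart from the myeloid list in FOXP3+ CD4 sp cells (up to 8.13 CPM), and the NK list to at most 1.85 CPM in CD4 sp groups.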

Additional observations from a re-analysis of the deposited data

Results flagged for a closer look

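In 16 of 314 groups of 4 dogs, 1 dog stood apart from the other 3 by Dixon's criterion, which chance alone does in about 1 in 20 groups. For the receptors, dog 4 was highest in CTLA4 among dp cells, at 42.8% of cells and 133 CPM. Dog 4 was also highest in PDCD1 among FOXP3+ cells, at 12.7% of CD4 sp cells and 32.8 CPM in dn cells, whereas dog 1 was highest in CTLA4 among FOXP3+ CD4 sp cells, at 373 CPM. In CD8A sp clones of 2 cells, dog 1 was highest in PDCD1 (15.8% of cells) and dog 3 in CTLA4 (67.5 CPM).

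Among other genes, dog 1 was lowest in SH2D1A in CD4 sp cells (61.7 CPM), lowest in CX3CR1 in PDCD1+ CD4 sp cells (4.30 CPM), highest in C9H17orf99 in PDCD1+ CD8A sp cells (56.9 CPM) and lowest in ZC3H12D in CTLA4+ CD8A sp cells (22.5 CPM). Dog 4 was highest in RRM2 (59.7 CPM), MKI67 (153 CPM) and TBX21 (87.0 CPM) in CTLA4+ CD8A sp cells. In CTLA4- CD8A sp cells it was highest in GZMA (410 CPM) and lowest in CCR7 (13.0 CPM).

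In 4 genes every dog moved one way with CTLA4 in CD8A sp cells and the other way in CD4 sp cells without FOXP3, and the difference was not tested. CCR7 was 1.49 higher with CTLA4 in CD8A sp cells and -0.36 in CD4 sp cells on the log2 scale. EOMES stood at -1.18 and 0.77, IKZF2 at -0.82 and 1.41, and IL2RB, a chain of the receptors for interleukins 2 and 15, at -1.16 and 0.44.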

How the results depend on the processing

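With the dog as a block, the paired analysis, counts of called genes rose to 2742 (CD4 sp against CD8A sp), 1252 (FOXP3), 1459 and 545 (clone size in CD4 sp and CD8A sp), 36 (interaction), 1356 and 617 (PDCD1+ in CD4 sp and CD8A sp), 758 and 692 (CTLA4+ in CD4 sp and CD8A sp); it changed no other call on PDCD1 or CTLA4 than those named beside the results. In the same order DESeq2 gave 742 for FOXP3, 193 for clone size in CD8A sp cells, 14 for the interaction, and 635, 207 and 10 for PDCD1+ CD4 sp, PDCD1+ CD8A sp and CTLA4+ CD4 sp cells. Cells of 2000 to 8000 UMIs gave 136 (FOXP3), 15 (PDCD1+ CD4 sp) and 2 (interaction). No filter gave 177 (clone size in CD8A sp), 125 (PDCD1+ CD8A sp) and 2 (interaction). Expanded clones from 5 cells gave 936 (CD4 sp) and 8 (interaction). A coreceptor minimum of 2 UMIs gave 49 (clone size in CD8A sp) and 0 (interaction), leaving out the largest clones 0 (interaction), and cells without CCR7 and LEF1 0 for both. The causes were not tested.

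PDCD1 between CD4 sp and CD8A sp cells passed with the block (-0.85) and DESeq2 (-0.87), and CTLA4 in PDCD1+ CD4 sp cells likewise (0.40 and 0.43). CTLA4 in expanded CD8A sp cells passed with the block (-1.55), without the filter (-1.46), with DESeq2 (-1.48), at 2000 to 8000 UMIs (-1.62) and from 5 cells (-1.78). For the receptors, signs turned where the difference in the main fit was within its error, though not every turned value was within its own. Clone size in CD4 sp cells gave PDCD1 -0.01 (block), -0.04 (2 coreceptor UMIs), -0.35 ± 0.309 (SE, 5 cells) and -0.18 (without the clone richest in PDCD1), and CTLA4 -0.02, -0.04 and -0.10 in the first 3. Clone size in CD8A sp cells gave PDCD1 -0.09 without that clone and -0.57 ± 0.247 (SE) without CCR7 and LEF1, which was not called. The PDCD1 interaction gave 0.04 (block), 0.00 (DESeq2), 0.05 (2000 to 8000 UMIs), 0.06 (2 coreceptor UMIs), 0.37 (5 cells) and 0.08 (without that clone). MKI67 in CTLA4+ CD8A sp cells turned to -0.41 at 2000 to 8000 UMIs.

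Leaving out 1 dog gave 704 to 1268 called genes (CD4 sp against CD8A sp, fewest without dog 2), 42 to 327 (FOXP3, dog 2), 1 to 525 and 24 to 73 (clone size in CD4 sp and CD8A sp), 0 to 0 (interaction), 8 to 408 and 0 to 21 (PDCD1+, dog 2 for both) and 59 to 178 (CTLA4+ CD8A sp, dog 3). PDCD1 ran from -0.02 to 0.21 and CTLA4 from -0.11 to 0.10 for clone size in CD4 sp cells, the PDCD1 interaction from -0.14 to 0.07, and CTLA4 from 0.36 to 0.51 in PDCD1+ CD4 sp and from -0.26 to 0.05 in PDCD1+ CD8A sp cells.

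Of 1001 alternatives for 103 other gene results, 802 kept direction and side of the threshold, 169 lost and 29 gained the call, and 1 turned. Depth limits the shares. Thinned to 2000 UMIs, PDCD1 was detected in 2.20% (CD4 sp) and 4.65% (CD8A sp), and CTLA4 in 19.1% (CD4 sp), 5.19% (CD8A sp) and 39.3% (FOXP3+ CD4 sp) of cells. With 2 UMIs required, the values were 0.812%, 1.47%, 12.4%, 3.22% and 38.5%.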
